A study of Mus musculus with 6 samples.

Results

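Transcripts of 9 genes of nuclear structure were followed in mouse skin fibroblasts (MSFs): the lamins Lmna, Lmnb1 and Lmnb2, the high mobility group (HMG) genes Hmga1, Hmga2, Hmgb1, Hmgb2 and Hmgb3, and Ezh2. They were chosen by name as chromatin markers of senescence, each matched 1 row among the 22162 genes of the table, and all 9 were among the 11877 genes that passed the filter on low values. MSFs of the FVB/N strain are, by the study's methods, a cell line from the dorsal skin of 1 female FASST mouse, in which a pro-alpha 2(I) collagen regulatory sequence drives a tamoxifen-inducible Cre and a floxed stop precedes p27Kip1 and GFP at the ROSA26 locus. Cells of both groups carry these alleles and were grown at 3% oxygen. The 3 TAM libraries, labelled senescent, came from cells given 10 µM tamoxifen for 48 h, and the 3 EtOH libraries, labelled non-senescent, from cells given ethanol, so the action of tamoxifen itself and that of the p27Kip1 allele cannot be told apart here. The libraries thus do not stand for separate animals, and nothing states that the 3 of a group came from separate cultures, so the p-values measure the spread between these libraries, which may be technical.

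Lamins are intermediate filament proteins that line the inner face of the nuclear envelope and anchor heterochromatin there. Loss of lamin B1 is a widely used marker of senescent cells. HMGA proteins bend AT-rich DNA and take part in senescence-associated heterochromatin foci, whereas HMGB proteins bind DNA without sequence preference and HMGB1 also acts as an alarm signal outside the cell. Ezh2 is the catalytic subunit of the Polycomb complex PRC2, which methylates histone H3 at lysine 27, and its level follows proliferation in many cell types.

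Values are normalized counts as deposited, of which 16.2 stand for 1 c.p.m., a count scaled to library size, at the mean library sum, and library sums lay between 14952367 and 17314953. Cdkn1b, the endogenous gene for p27Kip1, stood at 1427, 3074 and 1853 normalized counts in EtOH_1, EtOH_2 and EtOH_3 and at 1699, 1520 and 1630 in TAM_1, TAM_2 and TAM_3. It was therefore not raised in the libraries labelled senescent (log2 fold change −0.32, SE 0.28, adjusted p = 0.677), and the sources do not say whether transgene reads add to its count. The libraries numbered 2 stood apart in both groups: the median of 34 proliferation genes was 181 in EtOH_2 and 230 in TAM_2, against 67.3 to 102 normalized counts in the other 4. All 11 fibroblast markers were above 1 c.p.m. in every library, and their summed level was 700700 to 1130370 with TAM and 1538890 to 1685650 without. The collagen genes Col1a1, Col1a2 and Col3a1 made up most of each sum. By log2 fold change, 8 of the 11 markers were lower with TAM and 3 higher. Lum and Dcn fell most, with log2 fold changes of −2.38 and −2.37 (adjusted p = 0.236 and 0.163). Thy1 was among the 3 higher markers, at 571 to 2165 with EtOH and 2246 to 4122 with TAM (adjusted p = 0.295). Summed markers of other cell types were far lower, at 56.9 to 87.0 for keratinocytes, 141 to 452 for macrophages and 288 to 1001 normalized counts for melanocytes. Summed endothelial markers were 92.5 to 241 with EtOH and 24.6 to 44.4 with TAM, so the groups did not overlap. Of these 6 markers Kdr alone passed the filter, and it is named here after its values were seen, as are Vwf and Tek. Kdr made up most of each EtOH sum. Among the markers below the filter, Vwf was higher and Tek lower with TAM in every pair. Kdr, which encodes a VEGF receptor, fell with TAM in the fit with the block, from 205, 68.7 and 116 to 4.84, 7.53 and 14.0 normalized counts in libraries 1 to 3 (log2 fold change −3.71, adjusted p = 0.0488 with the block and 0.0608 without). The part of these differences in the results that follow was not tested.

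No member passed an adjusted p of 0.05 between TAM and EtOH, with the replicate number as a block or without it. Without the block the smallest adjusted p-values were those of Lmnb1 (0.373) and Ezh2 (0.385), both lower with TAM. With it they were those of Hmga1 (0.209), higher with TAM, Lmnb1 (0.228) and Ezh2 (0.262). Over all genes, limma called 0.244% without the block and 1.62% with it. At an unadjusted p under 0.05, 1 member was lower and 0 were higher without the block, where 6.7% and 6.66% of all genes passed. With the block 2 were lower and 1 was higher, where 8.32% and 8.64% of all genes passed. By rank alone, 1 of the 9 members had all TAM libraries below all EtOH libraries (11.4% of all genes) and 0 had them above (9.19%). Within same-numbered pairs, 4 were lower with TAM in all 3 pairs (23.6% of all genes) and 1 was higher in all 3 (18.3%). The median log2 fold change was 0.08 over the members and −0.03 over all genes tested. Scaling all libraries to the same sum moved the median of the members to 0.19 and that of all genes to 0.08. No member changed sign under that scaling. In these bulk libraries fewer cells with a transcript and less of it per cell cannot be told apart.

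**Figure D1:**
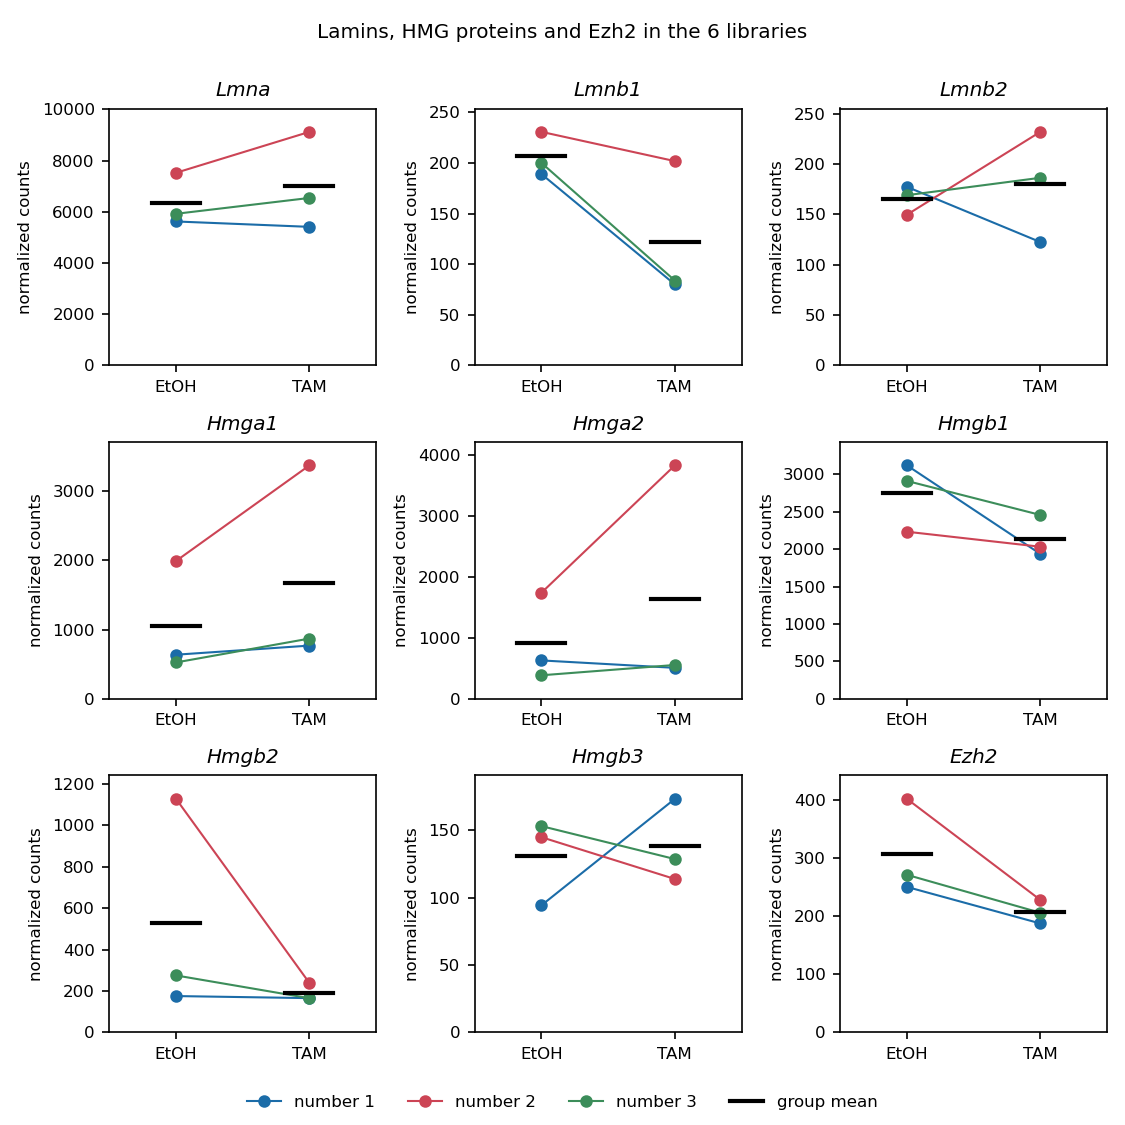
Normalized counts of each member (vertical axes, each from 0) in the EtOH and TAM libraries, with lines joining same-numbered libraries and black bars for group means. Hmga1 and Hmga2 are highest in both libraries numbered 2, Hmgb2 is high in EtOH_2 alone, and Ezh2 has no overlap between the groups.

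Lmna, which encodes lamins A and C, was the most abundant member and differed little between groups. It stood at 5623, 7525 and 5923 normalized counts in EtOH_1 to EtOH_3 and at 5412, 9123 and 6542 in TAM_1 to TAM_3. The groups overlapped, with both libraries numbered 2 highest, and the log2 fold change of 0.12 (SE 0.25, 95% interval −0.46 to 0.71) did not pass (adjusted p = 0.876). Without TAM_2 it was −0.083. The gene lies on the minus strand of mm9 chromosome 3, from 88285070 to 88313878, with 15 exon blocks.

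Lmnb1, which encodes lamin B1, was lower with TAM in each pair, but by very different amounts. Its normalized counts were 189, 231 and 200.1 in EtOH_1 to EtOH_3 and 80.0, 202 and 83.9 in TAM_1 to TAM_3. TAM_1 and TAM_3 were below every EtOH library, and TAM_2 lay within the EtOH range. The TAM level was 0.423, 0.875 and 0.419 of that of EtOH in pairs 1, 2 and 3. The log2 fold change was −0.89 (SE 0.38, 95% interval −1.78 to −0.0015), with an adjusted p of 0.373 without the block and 0.228 with it. Weighting libraries by their estimated precision gave −1.17 and an adjusted p of 0.0287, in a fit that called 742 of 11877 genes. Those weights, estimated from the same values, were 0.288 for TAM_2 and 0.292 for EtOH_2, against 0.931 to 4.06 for the other libraries. TAM_2, the TAM library within the EtOH range, thus counted little in that fit. With such weights joined to the block, 4312 of 11877 genes and 5 members including Lmnb1 were called, but the weight estimate then did not converge. Leaving out single libraries gave values from −1.32 to −0.66. Lmnb1 lies on the plus strand of mm9 chromosome 18, from 56867467 to 56913078, in 11 exon blocks, and no other place in the genome matched its transcript.

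Lmnb2, the second B-type lamin gene, moved in different directions in different pairs. It stood at 177, 150 and 169 normalized counts in EtOH_1 to EtOH_3 and at 123, 232 and 186 in TAM_1 to TAM_3, so the TAM libraries spanned the EtOH range on both sides. The log2 fold change was 0.08 (SE 0.28, adjusted p = 0.933), and it was −0.13 without TAM_2. The gene lies on the minus strand of mm9 chromosome 10, from 80363948 to 80380990.

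The ratio of Lmnb1 to Lmna within a library does not depend on library scaling. Lmnb1 was 3.36, 3.07 and 3.38% of Lmna in EtOH_1 to EtOH_3 and 1.48, 2.21 and 1.28% in TAM_1 to TAM_3, as normalized counts without correction for length. The groups did not overlap, and the exact two-sided permutation test gave p = 0.1, the smallest that 3 against 3 libraries allow, or 0.5 adjusted over 5 ratios. These 5 ratios were chosen after the members' values had been seen. The other 4 (Lmnb2 to Lmna, Hmgb2 to Hmgb1, Hmga2 to Hmga1 and Ezh2 to Ezh1) had exact permutation p-values from 0.7 to 0.9.

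**Figure D2:**
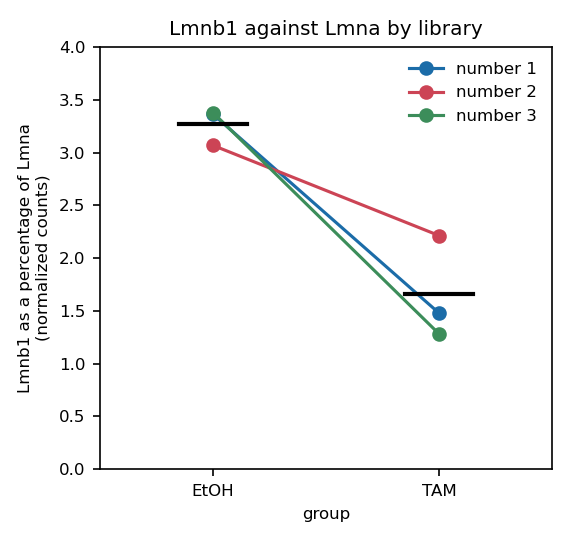
Lmnb1 as a percentage of Lmna in normalized counts (vertical axis, from 0) in each EtOH and TAM library, with lines joining same-numbered libraries and black bars for group means. EtOH libraries lie between 3.07 and 3.38% and TAM libraries between 1.28 and 2.21%.

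Hmga1 and Hmga2, the AT-hook genes, differed more between the library numbers than between the groups. Hmga1 had 639, 1993 and 527 normalized counts in EtOH_1 to EtOH_3 and 770.2, 3374 and 872 in TAM_1 to TAM_3. It was higher with TAM in every pair, by 1.21, 1.69 and 1.65 times, yet the groups overlapped because EtOH_2 lay above TAM_1 and TAM_3. Both libraries numbered 2 were far above the rest. The log2 fold change of 0.58 had an SE of 0.69 without the block (adjusted p = 0.760) and 0.18 with it (adjusted p = 0.209). Hmga2 had 630.1, 1739 and 387 normalized counts in EtOH_1 to EtOH_3 and 509, 3824 and 556 in TAM_1 to TAM_3. Its pairs did not share a direction, with ratios of 0.808, 2.20 and 1.44, and its log2 fold change of 0.45 (SE 0.87, adjusted p = 0.867) did not pass. Without TAM_2 alone, which keeps the high EtOH_2, both values turned negative, to −0.10 for Hmga1 and −0.50 for Hmga2. Hmga2 was −0.03 without EtOH_3. Without both libraries numbered 2, Hmga1 was 0.50 (adjusted p = 0.208) and Hmga2 0.11 (adjusted p = 0.847). Hmga1 lies on mm9 chromosome 17, from 27693565 to 27700619 on the plus strand, and Hmga2 on chromosome 10, from 119798331 to 119913525 on the minus strand.

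Among the HMGB genes, Hmgb1 and Hmgb2 were lower with TAM in each pair and Hmgb3 was not. Hmgb1 had 3121, 2234 and 2913 normalized counts in EtOH_1 to EtOH_3 and 1938, 2033 and 2458 in TAM_1 to TAM_3. TAM_3 lay above EtOH_2, so the groups overlapped, and the log2 fold change was −0.36 (SE 0.20, adjusted p = 0.494). Hmgb2, which is abundant in dividing cells, had 176, 1129 and 275 normalized counts in EtOH_1 to EtOH_3 and 166, 239 and 165 in TAM_1 to TAM_3. EtOH_2 was far above the other 5 libraries. The log2 fold change of −1.02 (SE 0.64, adjusted p = 0.555) came to −0.23 without EtOH_2. Hmgb3 had 94.4, 145 and 153 normalized counts in EtOH_1 to EtOH_3 and 173, 114 and 129 in TAM_1 to TAM_3. Pair 1 was higher and pairs 2 and 3 were lower with TAM, and the log2 fold change was 0.09 (SE 0.29, adjusted p = 0.921), −0.13 without EtOH_1 and −0.08 without TAM_1.

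These HMG genes have near-copies in the genome, which limits what a count on them means. At 95% identity over at least 100 bases, 81.5% of the longest Hmgb1 transcript matched among 32 other places in mm9, 42.9% of that of Hmgb2 among 8, and 84.0% of that of Hmgb3 among 7. For Hmga1 it was 79.0% among 2 places and for Hmga2 79.3% at 1. Lmna, Lmnb1 and Ezh2 had 0 such places, and 3.17% of that of Lmnb2 matched a repeat found at 2638. Hmgb1 lies on mm9 chromosome 5, from 149858278 to 149865089 on the minus strand, Hmgb2 on chromosome 8, from 59990640 to 59994796 on the plus strand, and Hmgb3 on chromosome X, from 68809093 to 68813851 on the plus strand.

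Ezh2 was the member with no overlap between groups. It had 250.2, 402 and 271 normalized counts in EtOH_1 to EtOH_3 and 187, 228 and 206 in TAM_1 to TAM_3. Each TAM library was below each EtOH library, and within pairs the TAM level was 0.749, 0.567 and 0.759 of that of EtOH. The log2 fold change was −0.54 (SE 0.24, 95% interval −1.10 to 0.01), with an adjusted p of 0.385 without the block and 0.262 with it. Ezh2 lies on the minus strand of mm9 chromosome 6, from 47480273 to 47545340, in 20 exon blocks.

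**Figure D3:**
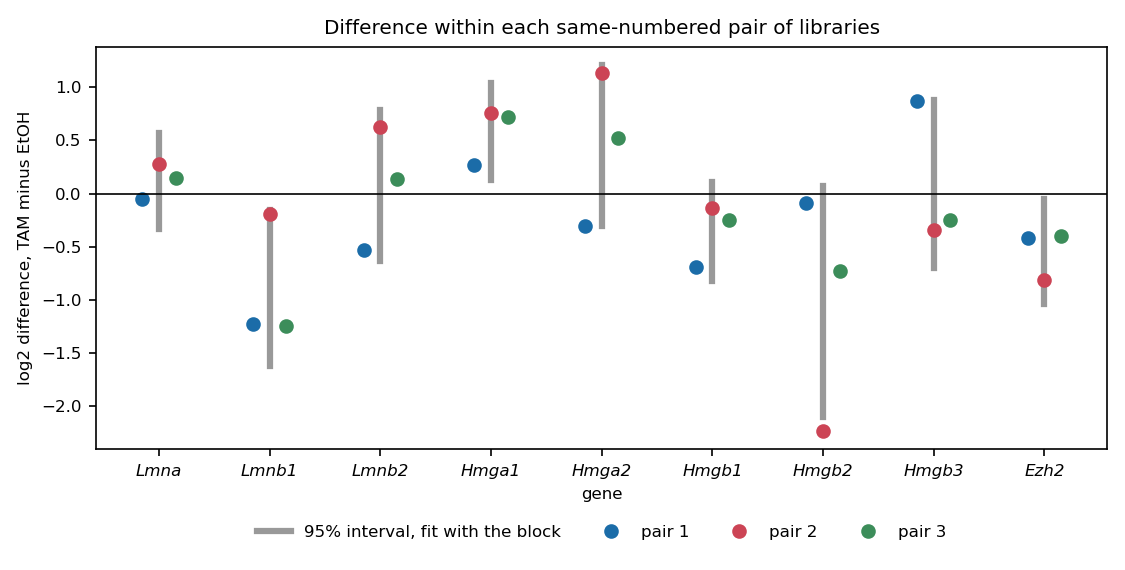
Log2 difference, TAM minus EtOH, within each same-numbered pair (points) for the 9 members, with grey bars for the 95% interval of the fit with the replicate block. Lmnb1, Hmgb1, Hmgb2 and Ezh2 lie below 0 in all 3 pairs and Hmga1 above 0 in all 3.

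Levels between genes were compared per kilobase of annotated exon. In EtOH the order was Lmna (1495 ± 240.5 normalized counts per kilobase, SD, n = 3), Hmgb1 (557 ± 93.8), Hmga1 (529 ± 410.0), Hmgb2 (196 ± 195), Hmga2 (136 ± 106), Lmnb1 (69.8 ± 7.30), Hmgb3 (58.6 ± 14.3), Ezh2 (49.6 ± 13.2) and Lmnb2 (38.6 ± 3.32). The range of Lmna over the EtOH libraries lay above that of its neighbour, and the ranges of all other neighbours in the order overlapped. Within each EtOH library, Lmna was above Hmgb1 and Hmga1 above Hmgb2, while the other neighbours changed places in at least 1 library or, for Hmgb3 and Ezh2, lay as close as 64.9 and 64.8 in EtOH_2. In TAM Lmna was again first, at 1652 ± 447, but Hmga1 in TAM_2 lay within its range. Lmnb1 moved from place 6 to place 8, with 41.2 ± 23.4, close to Lmnb2 at place 7 with 42.1 ± 12.8. It was below Lmnb2 and Hmgb3 in TAM_1 and TAM_3. In TAM_2 it was above both, at 68.2 against 54.1 and 51.0.

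The sequences before the starts of Hmgb1, Hmgb2 and Ezh2 are shown because these genes were lower in every pair. RefSeq windows of 250 bases, on GRCm38.p6 and not on the build of the counts, were read for 8 of the 9 members. No window of Lmnb1, also lower in every pair, was read, so the motif counts of the members leave that gene out. Capitals mark CCAAT or TTTGAA on either strand, and lines run 5′ to 3′ towards the start. The Hmgb1 window is chr5:149053058-149053307 on the minus strand, that of Hmgb2 chr8:57511593-57511842 on the plus strand and that of Ezh2 chr6:47595031-47595280 on the minus strand.
Hmgb1: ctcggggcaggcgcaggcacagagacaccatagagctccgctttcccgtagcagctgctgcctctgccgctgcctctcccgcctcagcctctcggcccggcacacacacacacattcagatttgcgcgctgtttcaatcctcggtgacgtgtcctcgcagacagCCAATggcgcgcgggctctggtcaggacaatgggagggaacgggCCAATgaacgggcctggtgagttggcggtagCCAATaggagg
Hmgb2: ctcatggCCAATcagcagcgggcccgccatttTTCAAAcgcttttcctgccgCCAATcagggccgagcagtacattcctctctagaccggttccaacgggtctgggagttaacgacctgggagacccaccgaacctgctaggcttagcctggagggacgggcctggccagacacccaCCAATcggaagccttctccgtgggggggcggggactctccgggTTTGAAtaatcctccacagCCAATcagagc
Ezh2: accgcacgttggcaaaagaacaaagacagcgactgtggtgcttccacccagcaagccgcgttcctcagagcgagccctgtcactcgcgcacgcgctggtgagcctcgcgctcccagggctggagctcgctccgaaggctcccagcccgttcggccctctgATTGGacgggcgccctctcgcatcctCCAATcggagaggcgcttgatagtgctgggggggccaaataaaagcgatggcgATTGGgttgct
The Hmgb1 window held 3 CCAAT matches, that of Hmgb2 held 4 with 2 TTTGAA matches, and that of Ezh2 held 3 CCAAT matches. Another Hmgb1 window, at a start further along the gene, held none. Of the 12 windows of the 8 members, 5 (41.7%) held CCAAT, 1 each for Lmna, Hmgb1, Hmgb2, Hmgb3 and Ezh2, and 2 (16.7%) held TTTGAA, for Hmgb2 and Hmgb3. Among all 32851 windows these shares were 33.8% and 16.0%. The E2F forms TTTCCCGC, TTTCGCGC, TTTGCCGC and TTTGGCGC, searched on both strands, were in 1.86% of all windows and in none of the members' windows. The motifs were chosen after some of these sequences had been seen, and a match is a description of letters only.

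Genes that work beside the members were read from lists. Of all genes tested, 53.8% had a negative log2 fold change, against which the counts of signs below stand. With all libraries scaled to the same sum, negative log2 fold changes numbered 11 of 19 lamina partners, 8 of 13 other HMG genes, 9 of 11 PRC2, 12 of 17 PRC1, 20 of 25 heterochromatin and 15 of 34 proliferation genes, and the proliferation median turned to 0.087. Of all genes, 41.8% were negative under that scaling. Of the lamina partners, 0 of 19 rows tested were called, and 6 had positive and 13 negative log2 fold changes, with a median of −0.17. Tmpo, which encodes the lamina-associated LAP2 proteins, had 1291, 2132 and 1305 normalized counts in EtOH_1 to EtOH_3 and 653, 721 and 703 in TAM_1 to TAM_3. The groups did not overlap, and the log2 fold change was −1.14 (SE 0.23, adjusted p = 0.123 and 0.0757 with the block). Tor1aip2, whose product LULL1 binds torsin A, had a row at 558 to 667 with EtOH and 848 to 1041 with TAM (log2 fold change 0.67, adjusted p = 0.183). Its other row stood higher, at 961 to 1198 with EtOH and 997 to 1687 with TAM. There the groups overlapped (log2 fold change 0.22, adjusted p = 0.730).

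On the list of other HMG genes, 0 of 13 tested were called, and the median log2 fold change was −0.15. That list also holds Supt16h, whose product has no HMG domain. Hmgn2, a nucleosome-binding HMG gene, had 1758, 1846 and 1934 normalized counts in EtOH_1 to EtOH_3 and 833, 659 and 998 in TAM_1 to TAM_3. It was lower in each pair (log2 fold change −1.17, SE 0.19), with an adjusted p of 0.0891 without the block and 0.0568 with it, and 93.8% of its transcript matched among 12 other places. Hmgn5 was at 48.2 to 71.7 with EtOH and 81.2 to 163 with TAM (log2 fold change 0.86, adjusted p = 0.344). Of the 5 tested genes on the list of HMGB receptors, which also holds the chemokine gene Cxcl12, 0 were called. Ager, which encodes the receptor RAGE, was at 64.9 to 111 with EtOH and 15.1 to 59.8 with TAM (adjusted p = 0.373). Havcr2, which encodes TIM-3, was higher in each pair but ranged from 1.62 to 56.3 with EtOH and from 16.0 to 362 with TAM (adjusted p = 0.513).

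No Polycomb gene listed passed the test without the block. In PRC2, 0 of 11 were called and 9 had negative log2 fold changes (53.8% of all genes), with a median of −0.27. Jarid2, a PRC2 cofactor, was at 326, 1063 and 350 normalized counts in EtOH_1 to EtOH_3 and 248, 240.4 and 292 in TAM_1 to TAM_3 (adjusted p = 0.429). Epop, listed as E130012A19Rik, was at 23.8 to 42.0 with EtOH and 44.7 to 80.4 with TAM (adjusted p = 0.374). In PRC1, 13 of 17 were negative, with a median of −0.23. Rybp, a PRC1 subunit, fell with TAM in the fit with the block, from 2451, 1976 and 4118 in EtOH_1 to EtOH_3 to 1024, 854 and 1155 in TAM_1 to TAM_3 (log2 fold change −1.43, adjusted p = 0.0451 with the block and 0.126 without). Its transcript matched over 99.9% of its length among 2 other places. The H3K27 demethylase genes Kdm6a and Kdm6b had log2 fold changes of −0.47 and −0.41, with adjusted p of 0.415 and 0.607.

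**Figure D4:**
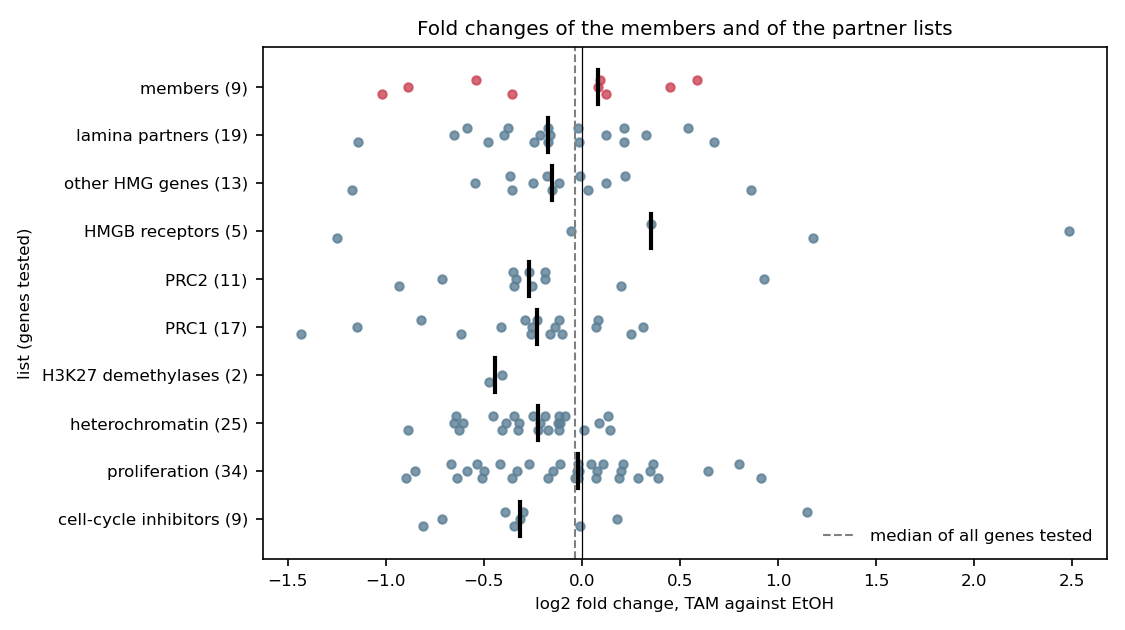
Log2 fold change of TAM against EtOH (horizontal axis) for each tested gene of the members and of 9 partner lists, with black bars for list medians and a dashed line for the median of all genes tested. List medians run from −0.44 for the 2 H3K27 demethylases to 0.35 for the 5 genes listed as HMGB receptors. The latter include the chemokine gene Cxcl12, whose value is that median. The members lie on both sides of 0.

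Of 25 heterochromatin genes 0 were called, 21 had negative log2 fold changes (53.8% of all genes) and 12 were lower in all 3 pairs (23.6% of all genes), with a median of −0.23. Uhrf1, which recruits DNA methyltransferase to hemimethylated DNA, and the histone chaperone gene Asf1b had the largest values, −0.89 and −0.66 (adjusted p = 0.722 and 0.805). Of 34 proliferation genes 0 were called, with a median of −0.02 and pair medians of 0.27, 0.21 and −0.73. Ccne1 had a log2 fold change of 0.91 (adjusted p = 0.550) and Mcm5 one of −0.90 (adjusted p = 0.759). Of 9 cell-cycle inhibitor genes 0 were called. Cdkn1a, which encodes p21, had 3461, 3655 and 1718 normalized counts in EtOH_1 to EtOH_3 and 7410, 4300 and 7452 in TAM_1 to TAM_3. The groups did not overlap, with a log2 fold change of 1.15 (SE 0.36, adjusted p = 0.254). Cdkn2c had a log2 fold change of −0.81 (adjusted p = 0.629).

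Genes whose profiles over the 6 libraries were most like those of the variable members were found by the smallest root mean square difference of centred log2 values. For Lmnb1 they were Sec61b (0.172) and Anxa2 (0.176), for Hmga1 Pvr (0.135) and Htr2a (0.225), for Hmga2 Hbegf (0.113) and Epha2 (0.207), and for Hmgb2 Nampt (0.195) and Piga (0.221). Hbegf, a growth factor gene, had 552 normalized counts in EtOH_2 and 1112 in TAM_2, against 116 to 160.1 in the other libraries. Nampt had 3196 in EtOH_2 and 476 to 585 in the other 5. Sec61b had 946 to 1045 with EtOH, 426 and 528 in TAM_1 and TAM_3, and 891 in TAM_2.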

How the data were processed

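Poly(A) RNA was sequenced from 3 TAM and 3 EtOH libraries. The authors mapped reads to mm9 with TopHat, counted them per gene with HTSeq and used edgeR with TMM scaling. The deposited signal is 1 table of normalized counts with genes in rows, whose scaling is not stated, so depth is unknown for most libraries, no counting intervals were computed, and the count test was not run. The precision is that of 3 libraries against 3. In R 4.3.3, limma 3.58.1 was fitted to log2(value + 1) with a trend of variance on level, for those at 1 c.p.m. or more in at least 3 libraries, and a gene was called when its p, adjusted by Benjamini-Hochberg over all genes tested, was under 0.05. Fold changes are on that log2(value + 1) scale.

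Libraries were paired by the numbers in their labels. Across genes, deviations from the group means correlated at 0.241, 0.287 and 0.422 within same-numbered pairs and at −0.310 to 0.0374 between others. Such deviations cancel out within a group, so these correlations are not independent of each other. Nothing states what the number shares. The model was tested on simulated data whose changes were larger than those of any member. How often it would find changes of the members' size was not measured. Members, lists and the naming rule were chosen with earlier results of these data known. In each partner list the genes called with or without the block are named, otherwise the 2 with the largest change, and for members with a profile SD of at least 0.5 the 2 most similar genes. Quantile normalization, omission of both libraries numbered 2, library weights together with the block, the 5 ratios and the promoter motifs were chosen after seeing the data. Exons were taken from GENCODE on mm9, transcripts were matched with BLAST 2.17.0, and Python 3.11.15, pandas 2.3.3 and matplotlib 3.10.9 made tables and figures. Strand of counting is not given in the sources used here.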

Additional observations from a re-analysis of the deposited data

How the results depend on the processing

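Of 11877 genes, 29 were called, with 0 members and 0 genes of the partner lists. With the replicate block, which pairs same-numbered libraries, 192 genes and 1 list gene (Rybp) were called, and no member's call changed. No filter on low values gave 17 genes, a minimum of 10 in all 6 libraries 18, and omission of both libraries numbered 2, 9. Library weights gave 742 genes, 1 member (Lmnb1) and 6 list genes (Cbx3, Cdkn1a, Hmgn1, Hmgn2, Rybp and Tmpo). Leaving out single libraries gave 0 to 15 genes and no member.

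Library weights together with the block, chosen after seeing the data, called 4312 genes, 5 members (Lmnb1, Hmga1, Hmga2, Hmgb2 and Ezh2) and 59 list genes. The weight estimate of that fit did not converge. It gave both libraries numbered 3 a weight of 6.04 against 0.772 and 0.215 for the pairs numbered 1 and 2, with 2 residual degrees of freedom per gene and weights estimated from the same values, so its calls are given as the output of that fit and nothing is drawn from them. Hmgb3 was −0.13 there.

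Other signs that turned, as log2 fold changes, were −0.20 for Lmnb2 without both libraries numbered 2. Leaving out single libraries moved Lmna between −0.083 and 0.29, Lmnb2 between −0.13 and 0.33, Hmga1 between −0.10 and 1.18, Hmga2 between −0.50 and 1.05 and Hmgb3 between −0.13 and 0.22. Without TAM_2 the values were −0.083 for Lmna, −0.13 for Lmnb2, −0.10 for Hmga1 and −0.50 for Hmga2. Without both libraries numbered 2, Hmga1 and Hmga2 stayed positive, at 0.50 and 0.11. Hmga2 was −0.03 without EtOH_3, and Hmgb3 was −0.13 without EtOH_1 and −0.08 without TAM_1. Lmnb1, Hmgb1, Hmgb2 and Ezh2 stayed negative in all 17 alternatives. Several of these, such as the block and the changed filters, leave a fold change as it was and so could not turn its sign. The share of all genes that kept their sign is not given. The cause of the turned signs was not tested.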
